A study of Mus musculus with 21 samples.

Results

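Pttg1 encodes securin, and it was followed here through all 3 of its probe sets among the 45037 non-control probe sets on each array, of which 34945 carry 1 gene symbol and stand for 18193 genes. The gene was chosen by its measured treated minus control differences, since it stood higher with ascorbic acid (vitamin C) than without, so those levels are given as measurements without a test. The series holds 21 Affymetrix mouse arrays in 7 groups of 3 biological replicates, all made from CGR8, a mouse embryonic stem cell line. Its embryoid bodies, aggregates within which the cells start to differentiate, began as hanging drops and moved to a shaker after day 2. They were collected at days 2, 3 and 5 from 20% IMDM with 100 µM ascorbic acid or from 20% IMDM alone. Undifferentiated day 0 cells, kept in 10% GMEM, form the last group, which has no treated counterpart. Arrays were run only on cultures that afterwards showed more beating aggregates with ascorbic acid, so the set is a selected one.

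Securin binds and holds back separase, the protease that cuts the cohesin rings joining sister chromatids. Once every chromosome is attached to the spindle, the anaphase promoting complex (APC/C), a ubiquitin ligase, marks securin and cyclin B for destruction, and separase is freed. Securin protein therefore rises and falls within each cell division, while an array reads only its mRNA, averaged over all cells. In bulk samples such as these, a change in the number of cells of a type and a change in mRNA per cell cannot be told apart.

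Levels are given as log2 signal, on which 1 unit is 2-fold. Arrays were close to each other in scale, with medians from 6.05 to 6.19. Among stem cell arrays replicate 1 was the least like its group, with correlations of 0.974 and 0.972 to the others against 0.989 between those, and its correlation with day 2 control replicate 1 was 0.985. Replicate 3 of day 3 lay nearer to day 2 than the other day 3 arrays in both arms on the first principal component (-26.9 treated and -26.3 control, others -7.18 to -3.15). The 6 stem cell markers averaged 10.62 to 11.96 in the day 0 arrays and 6.23 to 6.81 and 6.37 to 6.90 in treated and control arrays of day 5.

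The brightest probe set of Pttg1, 1438390_s_at, read 11.82, 11.84 and 11.64 in day 2 aggregates with ascorbic acid, against 10.57, 10.74 and 10.31 in day 2 controls. At day 3 the treated arrays read 11.96, 12.15 and 11.77 and the controls 10.83, 10.85 and 10.81. At day 5 the treated arrays read 11.83, 12.17 and 11.95 and the controls 10.40, 10.81 and 10.67. The arms did not overlap on any day, and the lowest of the 9 treated arrays lay 0.79 above the highest of the 9 control arrays. Within pairs of equal replicate number, treated arrays were higher by 1.23 ± 0.12 at day 2 (2.34-fold), 1.13 ± 0.17 at day 3 (2.19-fold) and 1.36 ± 0.08 at day 5 (2.56-fold; SD, 3 pairs each). At day 2 its mean percentile among the signals of an array was 98.6 in treated and 96.2 in control aggregates.

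**Figure D1:**
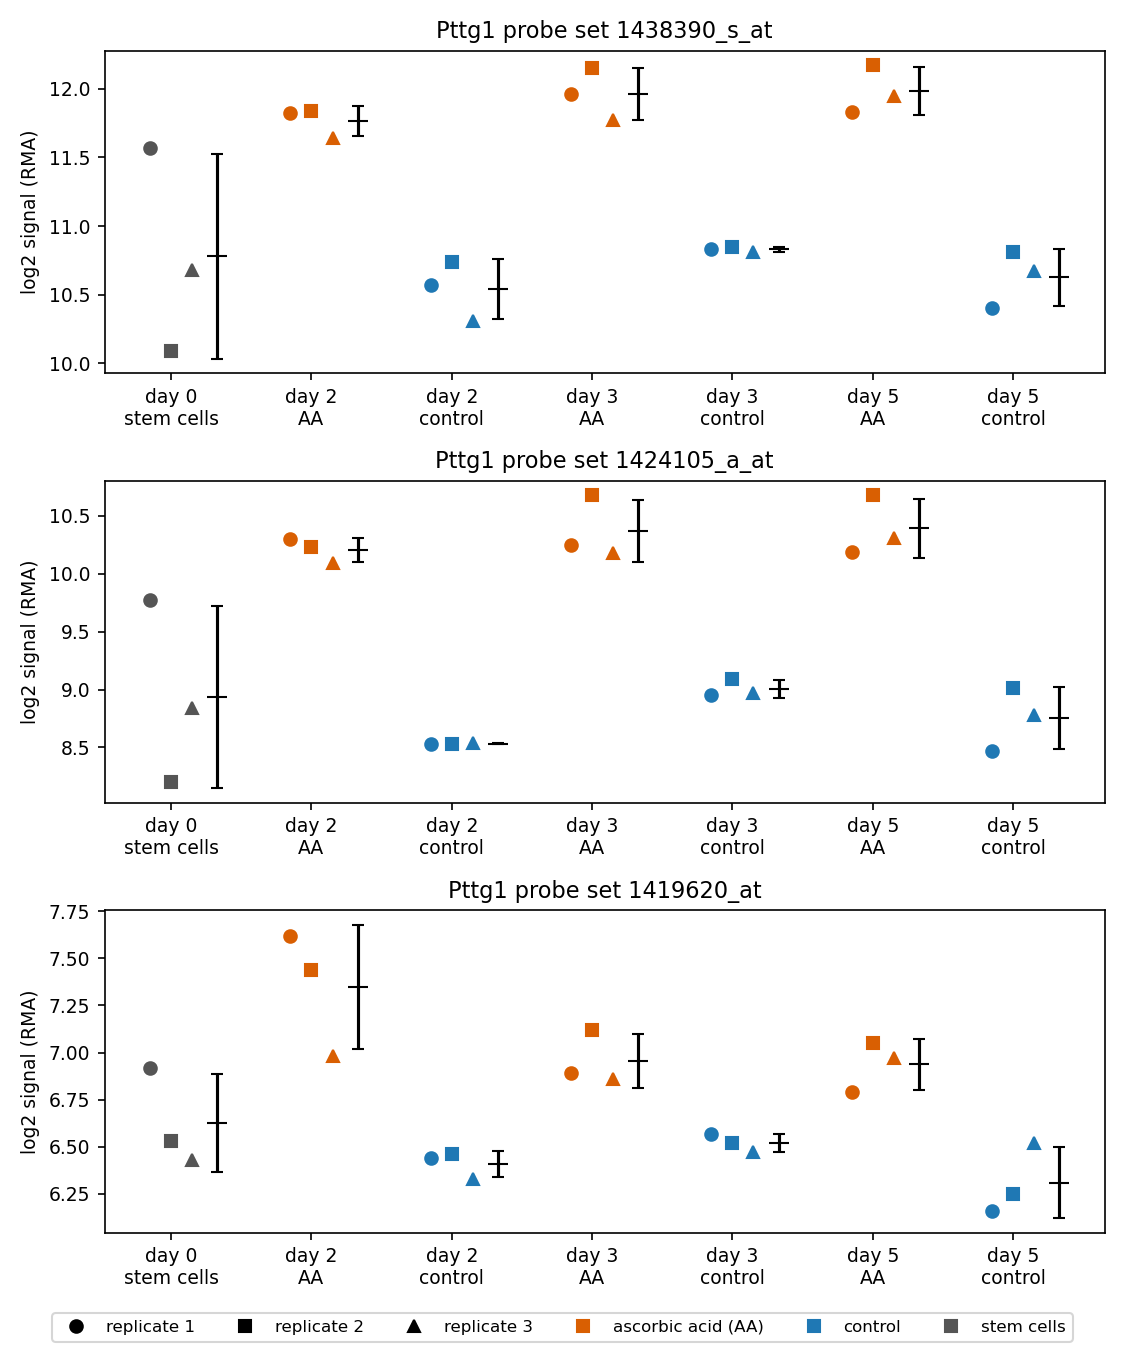
Log2 signal of the 3 Pttg1 probe sets (1 panel each) on every array, by group, with marker shape for the replicate number and, beside each group, its mean ± SD (n = 3). In each panel the 9 ascorbic acid arrays lie above the 9 control arrays, and 1 day 0 array lies far above the other day 0 arrays in the upper panels.

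The other probe sets showed the same order of the arms. Probe set 1424105_a_at read 10.30, 10.23 and 10.09 in treated and 8.53, 8.53 and 8.54 in control aggregates of day 2. It read 10.25, 10.68 and 10.18 in treated and 8.95, 9.09 and 8.97 in control aggregates of day 3, and 10.19, 10.68 and 10.31 against 8.47, 9.01 and 8.78 at day 5. Its treated arrays thus lay at least 1.00 above every control array, the widest gap of any probe set. The difference was 1.67 ± 0.11, 1.37 ± 0.20 and 1.64 ± 0.10 at days 2, 3 and 5 (SD, 3 pairs), or 3.19-, 2.58- and 3.12-fold.

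The third probe set, 1419620_at, was much dimmer, at group mean percentiles from 53.9 to 70.9 among the signals of an array. It read 7.62, 7.44 and 6.98 in treated and 6.44, 6.46 and 6.33 in control aggregates of day 2, then 6.89, 7.12 and 6.86 against 6.57, 6.52 and 6.47 at day 3. At day 5 it read 6.79, 7.05 and 6.97 in treated and 6.16, 6.25 and 6.52 in control aggregates. Its differences were smaller, at 0.94 ± 0.27, 0.44 ± 0.15 and 0.63 ± 0.18 (SD, 3 pairs), and its 9 treated arrays lay at least 0.22 above the 9 control arrays.

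**Figure D2:**
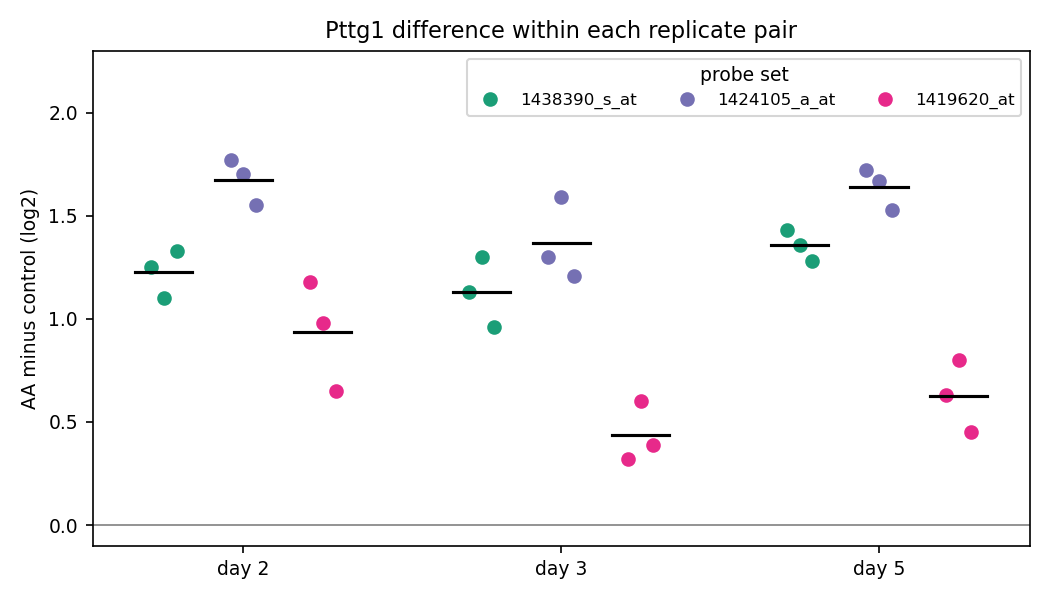
Treated minus control (log2) for each pair of arrays of the same day and replicate number, by day and probe set, with the mean of 3 pairs as a bar. All 27 differences lie above 0, from 0.32 to 1.77, with the lowest in probe set 1419620_at at day 3.

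Across the 21 arrays the brighter probe sets ran together (r = 0.990), and each followed the dim one less closely (r = 0.829 and 0.839). Within groups, where the treatment plays no part, these correlations were 0.950, 0.627 and 0.612. Much of the spread within groups came from day 0, where the brighter probe sets had SDs of 0.75 and 0.79. In the other groups their SDs were at most 0.22 and 0.27. The probes of a gene read the same RNA on the same array, so these correlations describe how well the probe sets agree and carry no p. The platform annotation assigned each of the 3 to Pttg1 alone. By Affymetrix naming the ending _s_at marks probes shared between transcripts and _a_at probes shared by variants of a gene.

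Among all 45037 probe sets, 3 (0.00666%) had every one of the 9 treated arrays above every one of the 9 control arrays, and these were the 3 probe sets of Pttg1. In the opposite direction there was 1. When the arms were compared day by day, 17 probe sets (0.0377%) had the treated arrays above the controls on each of the 3 days. On single days 5.89%, 3.47% and 3.82% of all probe sets at days 2, 3 and 5 had the treated arrays above the controls. Averaged over days, the difference of 1.24 at the brightest probe set was the highest among the 18193 genes. A probe set without a gene symbol, 1450943_at, stood higher still at 1.73. Its lowest treated less its highest control array was -0.01, so its arms barely overlapped, and on each single day they did not. For 1434550_at (3830406C13Rik), with a difference of 0.30, this gap was 0. On single days Pttg1 ranked 7th, 5th and 12th at days 2, 3 and 5. The gene was picked for this contrast, so its place is a description.

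Within each arm the day means of the brightest Pttg1 probe set lay close together. At the brightest probe set the 9 treated arrays spanned 11.64 to 12.17 and the 9 control arrays 10.31 to 10.85. Ordered by group mean, day 5 (11.98), day 3 (11.96) and day 2 (11.77) with ascorbic acid came first, followed by day 3 controls (10.83), day 0 cells (10.78), day 5 controls (10.63) and day 2 controls (10.54). The treated groups overlapped with each other, as did the control groups of days 2 and 5, and the day 0 arrays spread over the whole control range and beyond. At 1419620_at the treated order differed, with day 2 (7.35) above day 3 (6.96) and day 5 (6.94).

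Change between days 2, 3 and 5 was tested on the mean of both arms at each day, in which the treated minus control contrast cancels. Day 3 minus day 2 was 0.24 ± 0.16 (SE; adjusted p = 0.405 over all probe sets, limma), with a 95% interval from -0.10 to 0.58. Day 5 minus day 3 was -0.09 ± 0.16 (adjusted p = 0.780, interval -0.43 to 0.25). Day 3 minus day 2 was 0.32 at 1424105_a_at and, with the opposite sign, -0.14 at 1419620_at. The steps of the other probe sets did not pass either, with adjusted p from 0.307 to 0.743 (limma). Without replicate 3 of day 3 in either arm, a choice made after seeing the data, these steps at the brightest probe set were 0.29 and -0.14, and treated minus control at day 3 was 1.22. For comparison, 10.2% and 23.5% of all probe sets were called in these steps.

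Day 0 has no treated arrays, so a step from day 0 to the mean of both arms at day 2 holds a share of the treated minus control difference by which the gene was chosen, and it is given as a description without a test. Day 0 cells read 11.57, 10.09 and 10.68 at the brightest probe set and 9.77, 8.20 and 8.84 at 1424105_a_at. At both, replicate 1 was thus close to the treated aggregates, though the labels of day 0 name no ascorbic acid. Replicate 2 was below every control aggregate at both. The dim probe set 1419620_at read 6.92, 6.53 and 6.43 at day 0, so there replicate 2 lay within the control range of 6.16 to 6.57. At the brightest probe set day 2 minus day 0 was 0.99 in the treated and -0.24 in the control arm, and 0.37 on the mean of both. Without replicate 1 of day 0 the last of these became 0.77. In this step 12.3% of all probe sets were called, from which nothing is read for Pttg1. The signal at the 3' end of a transcript less that at the 5' end grows as RNA degrades. For Actb it was 0.91 to 1.40 at day 2 and 0.79 to 0.87 at day 0. The ranges overlapped for Gapdh (0.11 to 0.63 and 0.06 to 0.18) and for Tfrc (0.54 to 1.26 and 0.30 to 1.72). The Tfrc mean was higher at day 0 (1.02) than in treated (0.71) or control (0.89) aggregates of day 2. The part of RNA degradation in this step was not tested. Stem cells and aggregates also differ in medium, so medium and time cannot be told apart in this step.

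Genes of mitosis and of S phase, and named partners of securin, were read next. They came from lists chosen for their role, with 92 of 94 genes measured. With ascorbic acid, 0 of the 92 were called in either direction at day 2, 3 or 5 or averaged over days (adjusted p over all genes, limma without pairing). Few genes of any kind were called in these comparisons, namely 0.0055%, 0%, 0.0605% and 0.0275% of 18193. At an unadjusted p under 0.05, limma gave 7.37%, 1.48%, 3.24% and 4.82% of all genes. The list members' differences averaged over days ran from -0.15 to 0.32, with a median of 0.04 against 0.003 for all genes, and the highest upper limit of their 95% intervals was 0.64. On single days the intervals were wider, with highest upper limits of 1.34, 0.74 and 0.92 at days 2, 3 and 5.

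**Figure D3:**
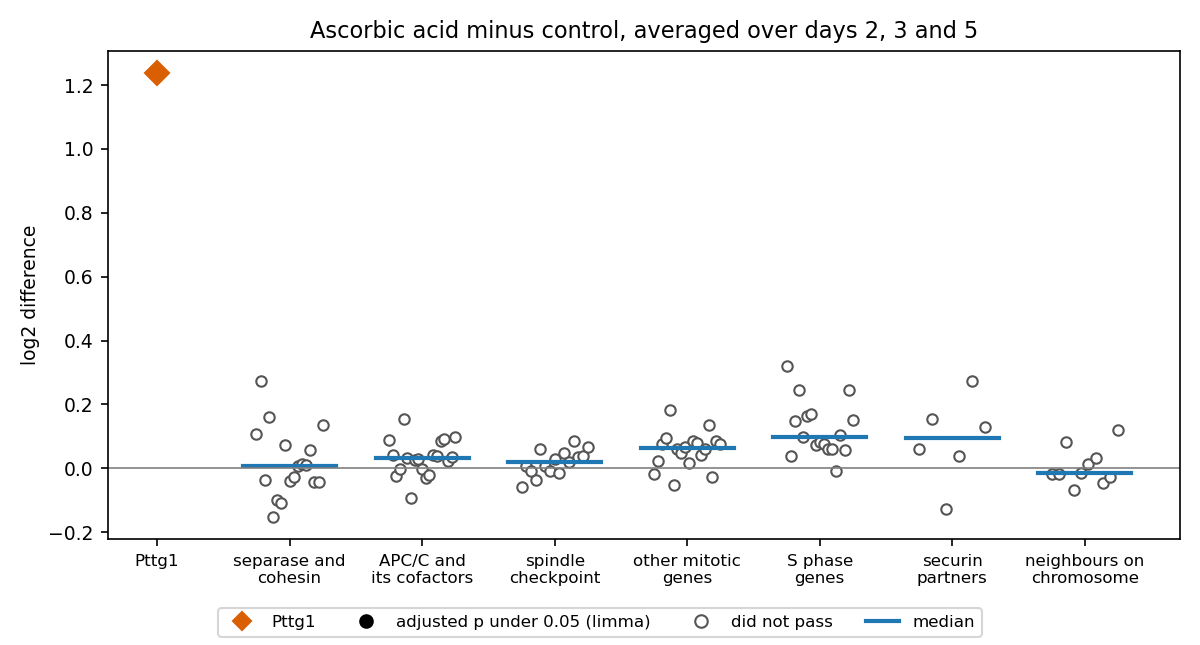
Treated minus control (log2), averaged over days 2, 3 and 5, for Pttg1 (diamond) and other genes (circles), with each group's median as a bar. The other genes are the members of 6 lists and the 10 nearest measured genes on the chromosome. Circles are open because 0 passed in the unpaired fit. In the paired fit 5 list members passed. Pttg1 lies at 1.24 and all other points between -0.15 and 0.32.

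Separase itself, Espl1, read 9.87, 9.95 and 9.55 in treated and 9.70, 9.93 and 9.47 in control aggregates of day 2. At day 3 it read 9.84, 9.89 and 9.88 in treated and 9.40, 9.95 and 9.66 in control aggregates, and at day 5 9.29, 9.62 and 9.34 against 8.95, 9.24 and 9.48. It averaged 9.79 ± 0.21, 9.87 ± 0.03 and 9.42 ± 0.18 in treated and 9.70 ± 0.23, 9.67 ± 0.28 and 9.22 ± 0.27 in control aggregates at days 2, 3 and 5 (SD, n = 3). Its mean difference was 0.16 (95% interval -0.06 to 0.38), and the arms overlapped on days 2, 3 and 5. The cohesin subunit Rad21 differed by -0.03 ± 0.09 (SE). Of the APC/C activators, Cdc20 differed by -0.02 (interval -0.20 to 0.16) and Fzr1 by 0.02 (interval -0.20 to 0.24), and the APC/C partner enzyme Ube2c by 0.03 (interval -0.08 to 0.15). Fbxo5, an inhibitor of the APC/C, differed by 0.09 ± 0.10 (SE). The checkpoint genes Mad2l1 and Bub1b differed by 0.01 each (intervals -0.15 to 0.16 in both). Cyclin A2 (Ccna2) differed by 0.09 (interval -0.08 to 0.27), Cdk1 by 0.07 (interval -0.11 to 0.25), and the mitotic kinases Plk1 and Aurka by -0.03 ± 0.09 and -0.02 ± 0.07 (SE). Pttg1ip, which encodes a securin-binding membrane protein, differed by -0.13 (interval -0.35 to 0.09).

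Within a day, treated and control arrays of equal number deviated together, so the fit with each pair as a block stands beside the unpaired one. In this paired fit 7 of the 92 members were higher at day 2 and 0 lower, where 2.11% and 0.539% of all genes were. They were Ccnb2, a B-type cyclin (0.47 ± 0.08, SE; adjusted p = 0.0044, limma), the acetyltransferase gene Esco1 that acts on cohesin (0.51 ± 0.13), the replication genes Cdc6, Pcna and Gins1, the APC/C subunit Anapc15 and the Ku subunit Xrcc5, with adjusted p of up to 0.0474 (limma). Among them only Ccnb2 was below 0.02. Probe sets of these genes disagreed in part: at day 2 the other one of Esco1 differed by 0.23, and the other 3 of Anapc15 by 0.43, 0.01 and 0.13, against 0.39 on the one used. A much dimmer probe set of Gins1 differed by 0.18, against 0.40 on the one used. At day 3 there were 0 of 92 in either direction (0.0934% of all genes were higher and 0.104% lower), and at day 5 there was 1, Ccne1, an S phase entry cyclin (0.58 ± 0.11; adjusted p = 0.0111, limma), where 0.781% of all genes were higher and 0.176% lower. The other probe set of Ccne1 differed by only 0.33 at day 5, and by 0.34 averaged over days. Averaged over days, 5 members were higher and 0 lower (1.45% and 0.495% of all genes): Ccne1 (0.32 ± 0.06), Xrcc5 (0.27 ± 0.06), Rrm2 (0.25 ± 0.05), Cdc6 (0.24 ± 0.05) and Ccnb2 (0.18 ± 0.05, SE). By list, the S phase genes accounted for 3 of these 5. The lists of separase and cohesin (17 genes), the APC/C (19) and the checkpoint (15) held 0, which is near the share of all genes.

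In the step from day 3 to day 5, in which Pttg1 did not pass, many members of the lists did. Of the 92 members 35 fell (38.0%) and 5 rose (5.43%), where 15.8% of all genes fell and 14.5% rose. In the separase and cohesin list 7 of 17 fell, among them Esco2, which acetylates cohesin (-1.08 ± 0.20), Cdca5, the cohesin protector sororin (-1.04 ± 0.08), the cohesin release factor gene Wapl (-0.55 ± 0.10), and Espl1 (-0.45 ± 0.13, SE; adjusted p = 0.0111, limma). Spindle checkpoint genes fell in 7 of 15 cases, such as Mad2l1 (-0.51 ± 0.09), the kinetochore gene Knl1 (-0.47 ± 0.09), Zwilch (-0.46 ± 0.11) and Bub1b (-0.43 ± 0.09). S phase genes fell in 9 of 17 cases, led by Ccne1 (-1.09 ± 0.09), the polymerase gene Pola1 (-0.63 ± 0.17) and Tyms (-0.56 ± 0.09). Other mitotic genes fell in 4 of 18 cases, the kinases Nek2 (-0.52 ± 0.13) and Aurka (-0.44 ± 0.09), the kinesin Kif20a (-0.41 ± 0.11) and Ccna2 (-0.37 ± 0.10). In the APC/C list 5 of 19 fell (26.3%), among them Anapc15 (-0.76 ± 0.10), Fbxo5 (-0.56 ± 0.12), Ube2c (-0.32 ± 0.07) and Cdc20 (-0.28 ± 0.10). Its 3 rises (15.8%, near the 14.5% of all genes) were the subunits Anapc2 (0.58 ± 0.13), Cdc16 (0.41 ± 0.10) and Anapc4 (0.39 ± 0.08). The fall of Cdc20 was called unpaired (adjusted p = 0.0465, limma) and not with pairs as a random block (adjusted p = 0.0972). Pttg1ip rose by 0.69 ± 0.13 while Xrcc5 and Xrcc6 fell by 1.00 and 0.91. That Pttg1 differed from these genes in this step was not tested.

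**Figure D4:**
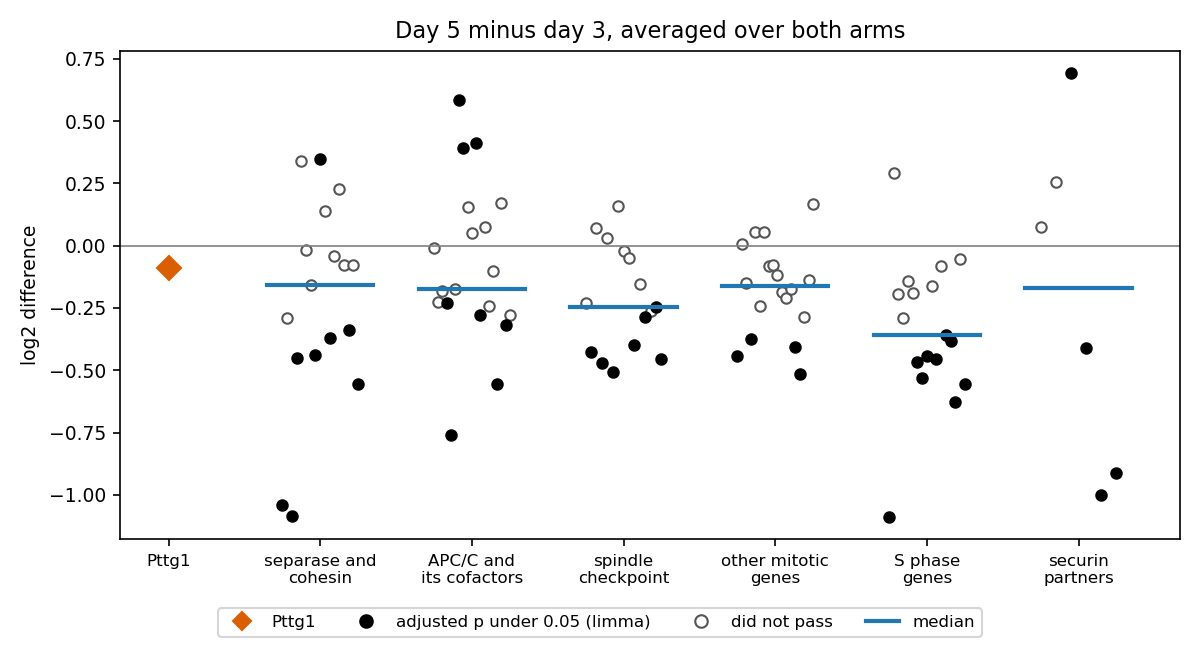
Day 5 minus day 3 (log2, mean of both arms) for Pttg1 (diamond) and the members of the 6 lists, filled where the adjusted p was under 0.05 (limma), with each list's median as a bar. Pttg1 lies at -0.09 and the list medians between -0.36 and -0.16.

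Between days 2 and 3, 15 of the 92 rose (16.3%) and 2 fell (2.17%), where 10.5% of all genes rose and 4.08% fell. These included the cohesin subunits Stag2 (0.67 ± 0.08) and Stag1 (0.55 ± 0.09), the APC/C subunit Cdc16 (0.75 ± 0.10) and the kinetochore gene Cenpf (0.63 ± 0.09), against Esco2 (-0.70 ± 0.20) and Ccne1 (-0.68 ± 0.09, SE). Other rises were Ccne2 (0.77 ± 0.18), Anapc2 (0.57 ± 0.13), Cdc25b (0.47 ± 0.11), Aurkb (0.44 ± 0.10), Spc25 (0.36 ± 0.08) and Anapc4 (0.33 ± 0.08), and Plk1 (0.33 ± 0.11; adjusted p = 0.0463) lost its call with the random block (adjusted p = 0.101, limma). Between days 0 and 2, 10 of the 92 rose (10.9%) and 7 fell (7.61%), near the 7.9% and 8.88% of all genes. Rises included the APC/C subunit Cdc26 (1.02 ± 0.14), Ccne1 (0.67 ± 0.11), Tyms (0.65 ± 0.11), Mad2l1 and Trip13 (0.63 ± 0.11 each), Xrcc6 (0.59 ± 0.16), Stag2 (0.58 ± 0.10), Anapc16 (0.49 ± 0.10) and Anapc15 (0.43 ± 0.12). Falls included Zwilch (-0.81 ± 0.14), Sgo2a, a protector of cohesin (-0.64 ± 0.18), Ccnb2 (-0.54 ± 0.14), Cdc25b (-0.49 ± 0.14), Cdt1 (-0.45 ± 0.12) and Smc1a (-0.34 ± 0.12, SE). The direction of Smc1a is uncertain, since its other probe sets read 0.14 and 0.12. The falls of this step depended on the stem cell arrays: 23 without day 0 replicate 1, 1 without replicate 2 and 3 without replicate 3. Over the 21 arrays the correlation of Pttg1 with the list members had medians from -0.02 to 0.17 by list, and the highest was 0.609, for the APC/C subunit Anapc1. These points share the split into treated and control arrays. Over the 12 arrays without ascorbic acid, a choice made after seeing the data, the medians ran from -0.31 to 0.12, Anapc1 had r = 0.561, and the highest was 0.666, for Cdc20, which had 0.222 over the 21 arrays. These 12 include the widely spread day 0 arrays. There Pttg1 (11.57, 10.09 and 10.68) and Cdc20 (12.15, 11.45 and 11.71) ran in the same order. The share of day 0 in this correlation was not tested.

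On chromosome 11, the 5 nearest measured genes on each side of Pttg1 in the RefSeq table (assembly GRCm38.p6) gave 0 calls with ascorbic acid, paired or unpaired (limma), where at most 0.0605% of all genes were called unpaired and at most 2.11% were higher and 0.539% lower in the paired fit, so that 0 of 10 is near the background. Their differences averaged over days ran from -0.07 (Gabrb2) to 0.12 (Pwwp2a), with 0.01 ± 0.06 (SE) for the splicing factor gene Slu7 next to Pttg1 and -0.02 for Atp10b on its other side. The remaining ones were Nudcd2, Ccng1 and Gabra6 on the side of Atp10b, and C1qtnf2, Ccnjl and Fabp6 on the side of Slu7. Fabp6 and C1qtnf2 had mean signals of 3.91 and 4.53, near the low end.

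The genes whose level followed Pttg1 most closely over the 21 arrays, of 8160 compared, were Lpl (r = 0.821), Plac8 (0.760), Zfp677 (0.728), Smim3 (0.692), Sfmbt1 (0.667), Tmem14a (0.665), Gstm5 (0.639) and Myl9 (0.638). All points share the split into treated and control arrays, so these values are a description. Lpl, which encodes lipoprotein lipase, averaged 8.39, 8.53 and 8.24 in treated and 7.55, 7.67 and 7.59 in control aggregates at days 2, 3 and 5. Its arms did not overlap at day 2 or day 3 and overlapped at day 5, where the lowest treated array read 7.96 and the highest control array 8.00. A dimmer probe set of Lpl differed by 0.29 averaged over days, against 0.78 at the one used. Plac8 averaged 8.94, 8.82 and 8.08 in treated and 7.90, 7.74 and 7.47 in control aggregates. Its arms did not overlap on any single day. Its day 0 arrays repeated the spread of Pttg1, at 8.03 in replicate 1 against 6.59 and 6.77. Over the 9 pair differences the closest genes were Dock6, P4ha1, Nipal3, Plbd1, Hdac11, Tspyl3, Armh4 and Lsm8 (r = 0.934 to 0.840). Ranking by Spearman's rho kept 1 of these 8.

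**Figure D5:**
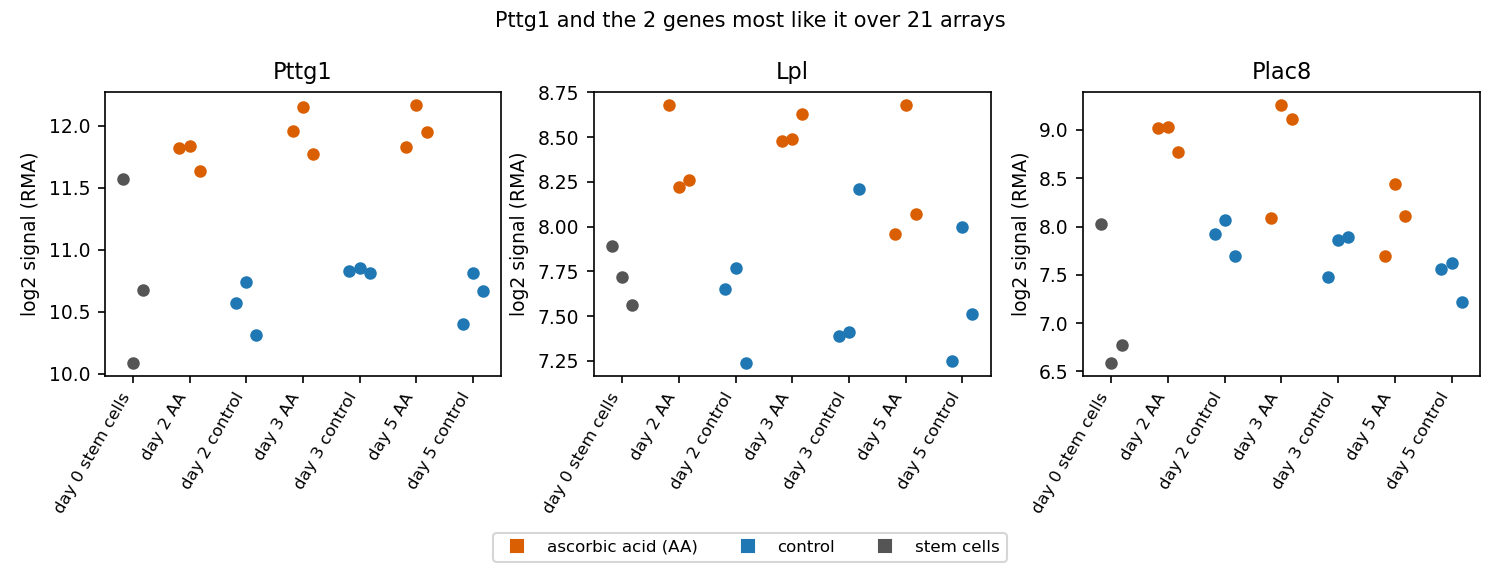
Log2 signal of Pttg1 and of Lpl and Plac8, the genes most correlated with it over the 21 arrays, on every array by group (ascorbic acid, control and stem cells by colour). The treated and control arrays separate fully for Pttg1 and overlap for Lpl and Plac8 when all days are pooled.

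Markers of other cell types were read beside the treated and control levels of Pttg1. The 4 neuroectoderm markers averaged 5.82 to 5.94 in treated and 6.11 to 6.24 in control arrays of day 2, 6.05 to 6.18 and 6.37 to 6.54 at day 3, and 5.81 to 5.94 and 6.10 to 6.55 at day 5, so these ranges did not overlap on any day. The distance came mostly from Zic1 at days 3 and 5. At day 5 Zic1 differed by -1.82, Sox1 by 0.08, Pax6 by 0.10 and Nes by -0.04, and the median of the list was 0.018. At day 3 Zic1 differed by -1.25 and the others by -0.08 to 0.05, and at day 2 Zic1 by -0.54, Nes by -0.40, Pax6 by -0.18 and Sox1 by -0.03. Averaged over days, 1 of the 4 was called, where 0.0275% of all genes were: Zic1 (-1.20 ± 0.18, SE; adjusted p = 0.0130, limma), a transcription factor gene that averaged 3.91, 4.01 and 3.61 in treated and 4.45, 5.25 and 5.43 in control aggregates at days 2, 3 and 5. All of these means lay below the array medians of 6.05 to 6.19, and the treated ones were near the low end. The part of neuroectoderm cells in the level of Pttg1 was not tested. In the lists for stem cells (6 genes), streak and mesoderm (5), fibroblasts (5) and extraembryonic endoderm (5), 0 were called unpaired. In the paired fit 1 of each list was called averaged over days (limma; 1.45% of all genes were higher and 0.495% lower): Klf4 (-0.38 ± 0.08) and Eomes (-0.43 ± 0.08) were lower and Col1a2 (0.58 ± 0.08) and Sox7 (0.34 ± 0.08, SE) higher. By day, the paired fit called Klf4 (-0.68), Eomes (-0.62), the fibroblast marker Vim (-0.63) and Nes (-0.40) lower at day 2, and Zic1 lower at days 3 and 5. It called Col1a2 (1.15) and Sox7 (0.97) higher at day 5. The range of the extraembryonic endoderm markers was 6.44 to 6.63 in treated and 6.68 to 6.73 in control arrays of day 2 and 8.49 to 8.64 and 8.36 to 8.41 at day 5, and overlapped at day 3. The other 3 lists overlapped between the arms on each day. The 3' minus 5' signals of Actb, Gapdh and Tfrc also overlapped between treated and control arrays on each day. At day 2 their means were higher in controls (1.19, 0.39 and 0.89) than in treated arrays (0.97, 0.16 and 0.71). At days 3 and 5 the means of Actb and Gapdh were higher in treated arrays and that of Tfrc in controls. The part of RNA degradation in the treated minus control differences was not tested.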

How the data were processed

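The deposited values are log2 signals per probe set, made with RMA by the authors, per the submitters' processing notes (version not given in the sources used here). RMA corrects background, equalises arrays by quantiles and summarises the probes, which compresses differences of dim probe sets. The table held 45101 probe sets on 21 arrays, 64 of them AFFX controls, and 0 value columns were left unused. Symbols came from the platform annotation: 34945 probe sets had 1, 932 several and 9160 none. RefSeq held 34741 of the 34945 by gene identifier.

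Group means of all 7 groups were fitted by limma 3.58.1 (lmFit, eBayes with trend; R 4.3.3), Benjamini-Hochberg adjusted over all features, threshold 0.05. Pttg1 steps between days 2, 3 and 5 used all 45037 probe sets (a planned test from day 0 is not given, since day 0 has no treated arm), and lists used 1 probe set per gene (highest mean). The script was tested on simulated data. The 3 replicates per group limit the precision, and arrays give no read depth.

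Pairing was checked by correlating deviations from group means: in 9 of 9 treated and control pairs r lay between 0.178 and 0.679. A fit with 9 pairs as fixed blocks, or as random blocks for steps between days, was the alternative. Others were renewed quantile normalisation, median centring, a filter at a mean of 5, only the groups compared, no trend, another probe set per gene, and each array left out.

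The member and the lists were chosen with earlier results of these data known. Named are all Pttg1 probe sets, 14 fixed partner genes, of which 1 was not measured, up to 3 called members per list and step with the largest change, the 8 genes most like Pttg1 in each ranking (mean of 6 or more, SD of 0.2 or more, clone names left out) and 5 neighbours per side. List members called in the paired fit, and some further called members, were added after their values were seen. No sequence is printed.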

Additional observations from a re-analysis of the deposited data

How the results depend on the processing

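The treated minus control difference of Pttg1 had the same direction under every alternative run on it. Since every treated array lay above every control array, leaving out 1 array could not have changed that direction. Leaving out 1 array gave 1.11 to 1.33 at day 2, 1.04 to 1.23 at day 3, 1.24 to 1.45 at day 5 and 1.20 to 1.27 averaged over days. Leave-one-out values of its steps were 0.028 (without day 0 replicate 2) to 0.77 for day 2 minus day 0 (without day 0 replicate 1; a description), 0.18 to 0.29 for day 3 minus day 2 and -0.14 to -0.03 for day 5 minus day 3. In the treated arm alone day 2 minus day 0 was 0.99. With the pairs as a random replicate block the steps from day 2 to day 3 and from day 3 to day 5 had adjusted p = 0.544 and 0.842 (limma), and this changed no call of Pttg1.

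Called list members with ascorbic acid numbered 0 in each comparison unpaired, and with the replicate block 7 at day 2, 1 at day 5 and 5 averaged over days were higher. Without day 2 control replicate 3 there was 1 at day 5 and 1 averaged over days, and 0 to 1 over all arrays left out. Leaving out 1 array gave 9 to 13 rises and 1 to 23 falls from day 0 to day 2, 10 to 20 and 1 to 3 from day 2 to day 3, and 4 to 7 and 32 to 38 from day 3 to day 5. After renewed quantile normalisation there were 14 falls from day 0 to day 2, 4 falls from day 2 to day 3 and 8 rises from day 3 to day 5. With only the groups compared, 3 fell from day 0 to day 2. Smc1a fell from day 0 to day 2 on its brightest probe set (-0.34) and read 0.12 on the one with the largest SD and 0.14 on a further one. Of the 8 genes most like Pttg1 over 9 pair differences, 1 was shared with the Spearman ranking. The cause of these changes was not tested.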
